A study of Arabidopsis thaliana with 2 samples.

Results

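Plant cells that run short of sugar, as in prolonged darkness, switch on a set of genes that release carbon and nitrogen from stored and structural material, and sugar switches the same genes off again. The 6 genes described here are classical markers of that state: SEN1 (also DIN1), ASN1 (DIN6), BGLU30 (DIN2), DIN10, BT1 and BT2. They were taken as a named list of loci that was chosen with earlier results of these data known. All 6 were present among the 21808 loci listed in at least 1 of the 2 libraries. Polyadenylated RNA of Arabidopsis thaliana seedlings aged 10 days was sequenced in 1 library from wild type and 1 from the crwn1 crwn2 double mutant. The products of both genes are coiled-coil proteins that build the lamina under the nuclear envelope of plant cells. The labels name no alleles, accession, light regime, sugar supply or number of plants, and both groups are whole seedlings. The question is how the transcriptome of crwn1 crwn2 seedlings differs from that of wild type, and the lamina proteins themselves were not measured. Uniquely placed reads on nuclear genes numbered 2046303 in wild type and 2153766 in the double mutant.

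With 1 library per genotype there is no replicate check and no test between genotypes, and every interval below covers counting error only. Genotype cannot be told apart from harvest, growth or library preparation. In seedling RNA, fewer cells of a type and less RNA per cell cannot be told apart either. As a check of the labels, wild type had 1021 CRWN1 reads and 148 CRWN2 reads, and the mutant had 57 and 9. Leaf photosynthesis and root marker genes were detected in both libraries. LHCA1, 1 of 10 leaf markers, had no wild-type read and 1 mutant read, and the root hair genes EXPA7 and EXPA18 had 0 reads in wild type.

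In the background to these genes, sugar shortage activates SnRK1, a protein kinase of the family that senses low energy in yeast and animals. SnRK1 acts in part through bZIP transcription factors of the C and S1 groups, which bind DNA with an ACGT core. ASN1, which encodes the enzyme that moves the amide group of glutamine to aspartate to make asparagine, is a widely used readout of this pathway. SEN1 encodes a protein with a rhodanese domain that accumulates in darkened and senescing leaves. DIN10 encodes a member of the raffinose synthase family and BGLU30 a beta-glucosidase of glycosyl hydrolase family 1. BT1 and BT2 encode scaffold proteins with a BTB and a TAZ domain, and BT2 is repressed by sugar and influences responses to sugar, hormones and nitrogen.

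The DNA just before the 4 genes that were lower in the mutant is shown first. These 4 were picked for printing by that outcome. The windows of DIN10 and BGLU30 were searched for the same motifs but are not printed. Whether these sequences bear on the difference was not tested. The sequences are from the TAIR10.1 reference with its RefSeq annotation, run 5′ to 3′ on the strand of the gene and end at the base before the outermost RefSeq gene start. The windows are chr4:16944678-16944877 on the plus strand, chr3:17441432-17441681 on the minus strand, chr5:25335571-25335820 on the minus strand and chr3:17910739-17910988 on the minus strand. For SEN1 only 200 bases are printed, since the neighbouring gene LTO1 begins 50 bases inside the 250-base window. In the ASN1 window, 136 bases overlap the annotated coding gene AT3G47341 on the opposite strand. RefSeq places the gene starts 63 bases (SEN1), 189 bases (ASN1), 85 bases (BT1) and 213 bases (BT2) outside the deposited transcript models. Capitals mark every match, on either strand, to the motifs searched.
SEN1: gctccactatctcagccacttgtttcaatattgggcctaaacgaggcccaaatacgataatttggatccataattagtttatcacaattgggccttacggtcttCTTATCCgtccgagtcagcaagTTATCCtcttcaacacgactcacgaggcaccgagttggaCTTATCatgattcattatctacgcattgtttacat
ASN1: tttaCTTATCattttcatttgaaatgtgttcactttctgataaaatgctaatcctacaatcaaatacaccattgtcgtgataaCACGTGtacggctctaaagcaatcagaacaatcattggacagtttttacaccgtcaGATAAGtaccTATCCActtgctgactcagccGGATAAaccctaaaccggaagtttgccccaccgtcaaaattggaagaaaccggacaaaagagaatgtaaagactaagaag
BT1: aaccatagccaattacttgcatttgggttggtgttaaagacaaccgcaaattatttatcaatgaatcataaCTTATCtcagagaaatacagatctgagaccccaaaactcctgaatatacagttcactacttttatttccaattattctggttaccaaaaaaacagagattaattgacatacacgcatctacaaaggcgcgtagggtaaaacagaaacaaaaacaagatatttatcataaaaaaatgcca
BT2: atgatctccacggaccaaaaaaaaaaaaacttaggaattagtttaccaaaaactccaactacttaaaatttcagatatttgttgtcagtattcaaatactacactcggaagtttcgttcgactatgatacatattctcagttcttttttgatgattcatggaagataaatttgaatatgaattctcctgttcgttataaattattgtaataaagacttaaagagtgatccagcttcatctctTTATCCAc
The motifs searched in 250 bases before each gene were the G-box CACGTG, its core ACGT, the amylase-type element TATCCA, the element ACTCAT bound by S1 bZIP factors, the evening element AAAATATCT, the light-related I-box core GATAAG and the sugar-repressible element TTATCC. The ACGT core lies inside the G-box, and TTATCC overlaps TATCCA in BT2 and the I-box core (CTTATC on the printed strand) at 1 place in SEN1. The sugar-repressible element was found before SEN1, ASN1 and BT2, 3 of 6 markers, and in 12.5% of 27443 promoters of nuclear protein-coding genes. It began 95 and 74 bases before the SEN1 start, 80 bases before the ASN1 start and 8 bases before the BT2 start. The I-box core was found before SEN1, ASN1 and BT1, 3 of 6 markers, against 12.3% of all promoters. The TATCCA element was found before ASN1 and BT2, 2 of 6, against 13.6%. The G-box occurred before ASN1 alone, 167 bases from the start, against 6.49% of all promoters, and DIN10 had a pair of ACGT cores without a G-box, 50 and 43 bases before its start. ACGT occurs in 44.1% of all promoters. ACTCAT (12.3% of promoters) and the evening element (2.36%) were found in none of the 6, and no motif was found before BGLU30. A match is a description of letters, and 6 genes are too few to set these shares apart from those of all promoters.

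Of the 6 markers, 4 were lower in the mutant library, none was higher and 2 were not called. Lower were the BTB and TAZ domain genes BT1 (4.36-fold) and BT2 (2.19-fold), SEN1 (4.27-fold) and ASN1 (5.96-fold). These folds are of reads scaled to library totals, and that of ASN1 rests on 17 and 3 reads, with an interval from 1.72 to 31.8. The 2 that were not called differed in sign, DIN10 with a log2 ratio of -0.38 and BGLU30 with 0.57. RPKM is the number of reads per kilobase of transcript, scaled to the library total. A gene was called when its RPKM + 1 differed at least 2-fold and equality lay outside the exact 95% interval of its read ratio. By this rule 4.53% of 14393 measured genes were called lower and 6.34% higher. A gene that was not called can still have an interval that excludes equality. The markers and every list below were chosen with earlier results of these data known. Their counts beside these shares are therefore a description only. Log2 ratios are of RPKM + 1 in the mutant over that in wild type, and their median was -1.31 over the 6 markers and 0.12 over all measured genes. The 6 genes together took 4751 wild-type and 2149 mutant reads, most of them from BT2. After TMM scaling, which lowers mutant values relative to wild type, the same 4 markers were called lower, beside 5.74% of all measured genes. At 1.5-fold they were again the markers called, beside 8.3% of measured genes, and at 4-fold BT1 and SEN1 were, beside 0.75%. With only the best covered transcript model of each locus, or only loci with 1 listed model, BT1 and BT2 were called lower, beside 4.47% and 4.36% of genes measured that way.

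**Figure D1:**
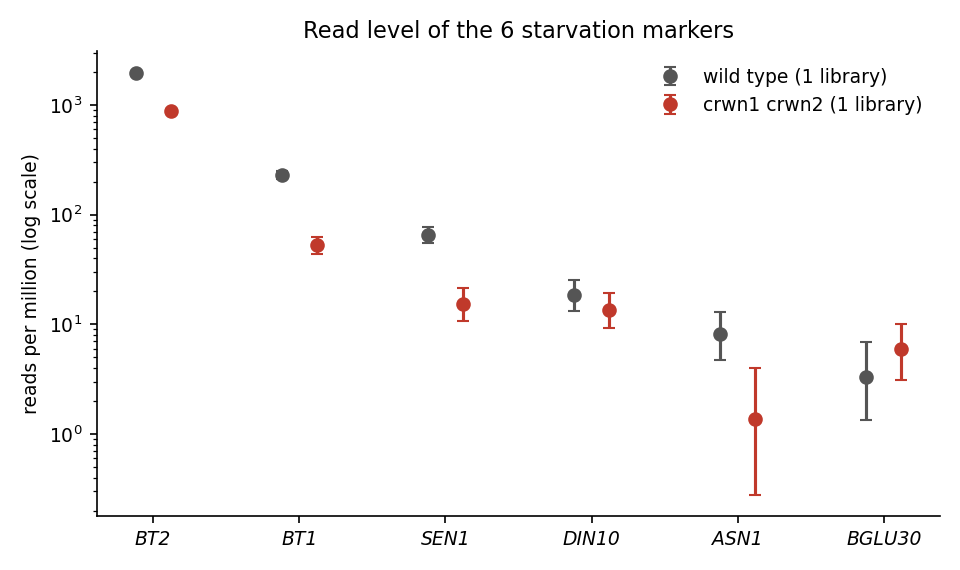
Read level (reads scaled to the library total) of each of the 6 markers on a log axis in 1 wild-type library (grey) and 1 crwn1 crwn2 library (red), with exact 95% Poisson intervals of counting error. The mutant point lies below the wild-type point for BT2, BT1, SEN1, DIN10 and ASN1 and above it for BGLU30, and the intervals of DIN10 and of BGLU30 overlap.

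BT2 (AT3G48360, chromosome 3, 17908192 to 17910525, minus strand, TAIR10) had the most reads of the 6 markers. Wild type had 4069 BT2 reads and the mutant 1953, on a transcript model of 1439 bases that was covered over 99.4% and 97.5% of its length. Its level was 1350 RPKM, against 616 RPKM in the mutant. The level was 2.19-fold lower (exact 95% interval 2.08 to 2.31), a log2 ratio of -1.13, and 3.84% of measured genes had a ratio as low or lower. The counting interval of BT2 is narrow because of its depth and says nothing of variation between seedlings.

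BT1 (AT5G63160, chromosome 5, 25333263 to 25335485, minus strand) had 481 reads in the wild-type library and 116 in that of the mutant. Its level fell from 163 RPKM to 37.4 RPKM, with 98.8% and 94.8% of the model covered. The level was 4.36-fold lower (3.56 to 5.39), a log2 ratio of -2.10, which ranked 95th from the lowest among 14393 measured genes. The difference was larger for BT1 than for its paralog. For every 100 BT2 reads there were 11.8 BT1 reads in the wild-type library and 5.94 in the other, a 1.99-fold change of this proportion (conditional exact 95% interval 1.61 to 2.48) that no scaling between libraries can alter.

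SEN1 (AT4G35770, chromosome 4, 16944941 to 16946192, plus strand) had 138 wild-type reads and 34 mutant reads over 3 transcript models. Its summed level was 73.1 RPKM and 16.9 RPKM, 4.27-fold fewer reads for equal library totals (2.92 to 6.41) and a log2 ratio of -2.05. All 3 models had fewer reads in the mutant. Model 1 had 114 and 23 reads, a 5.21-fold difference (3.31 to 8.56), model 2 had 21 and 10 reads, 2.21-fold with an interval from 0.996 to 5.25, and model 3 had 3 and 1. Model 1 held 82.6% of the SEN1 reads in wild type (exact binomial 95% interval 75.2% to 88.5%) and 67.6% in the mutant (49.5% to 82.6%), so the intervals of the shares overlap. When only the best covered model, model 2, was used, the log2 ratio was -0.997 and SEN1 was not called.

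ASN1 (AT3G47340, chromosome 3, 17437884 to 17441242, minus strand) had 17 wild-type reads and 3 mutant reads. Model 2 had 9 and 2 reads and model 3 had 8 and 1. The summed level was 3.47 RPKM against 0.585 RPKM, 5.96-fold fewer reads, but the counting interval ran from 1.72 to 31.8. Its log2 ratio of -1.50 is smaller than the fold of reads implies because 1 was added to each RPKM. ASN1 was below the limit of measurement when an RPKM of 5 was required and when only its best covered model was used.

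SEN1, ASN1 and DIN10 are loci with several listed transcript models, and their levels are too low in both libraries because a read that matches more than 1 model of a locus seems not to have been counted. The best covered model of SEN1 was covered over 17.3% of its length in wild type, that of ASN1 over 9.87% and that of DIN10 over 5.5%. Loci with several listed models had a median coverage of 5.37% in wild type and 5.21% in the mutant, against 53.7% and 57.8% for loci with 1. The order of the markers by RPKM is therefore interpretable only for BT2 and BT1, at 1350 and 163 RPKM in wild type. Each has 1 listed model, covered over 99.4% and 98.8% of its length in wild type. BGLU30, at 1.73 RPKM, also has 1 listed model, but that alone does not show that no reads were lost. ASN2 has 1 listed model too, and its 19 wild-type reads covered only 4.35% of it. The ratio of a locus rests on the parts of it that are unique to a model.

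**Figure D2:**
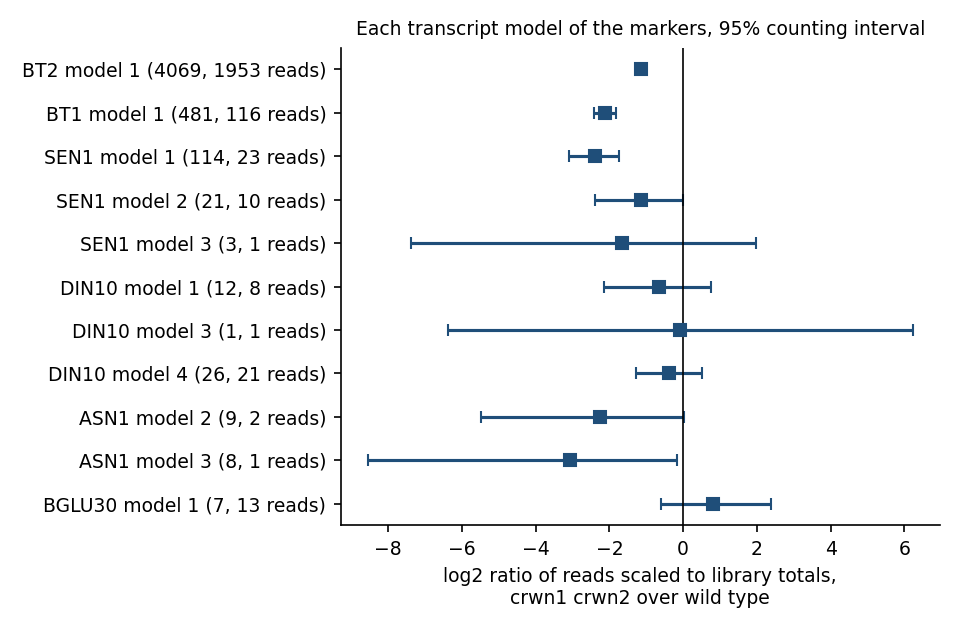
Log2 ratio of reads scaled to library totals, crwn1 crwn2 over wild type, for each listed transcript model of the 6 markers, with exact 95% counting intervals and the reads of both libraries in brackets (wild type first). The models of BT2 and BT1, model 1 of SEN1 and model 3 of ASN1 have intervals below 0, and those of DIN10 and BGLU30 cross it.

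DIN10 (AT5G20250, chromosome 5, 6833659 to 6836782, plus strand) had 39 wild-type and 30 mutant reads. Model 4 had 26 and 21 reads, model 1 had 12 and 8, and model 3 had 1 and 1. The summed level was 6.70 and 4.90 RPKM, and the 1.37-fold difference had an interval from 0.828 to 2.28, so a difference was not detectable at this depth. In the RefSeq annotation DIN10 overlaps AT5G20260, a gene on the opposite strand with 4 and 8 reads, by 82 bases. Nearly all of that stretch lies beyond the deposited DIN10 models, which end at 6836782, since AT5G20260 spans 6836781 to 6839609.

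BGLU30 (AT3G60140, chromosome 3, 22216672 to 22220824, plus strand) was the only marker with more reads in the mutant, 13 against 7 in wild type. Its level was 1.73 RPKM, against 3.06 RPKM in the mutant, with 14.7% and 28.5% of the model covered. The ratio of 1.77 had an interval from 0.655 to 5.22 and was not called. Its ratio differed from those of ASN1, BT1, SEN1 and BT2 beyond counting error, and the interval against DIN10 included equality. Relative to ASN1, the mutant-to-wild-type ratio of BGLU30 was 10.5 times as large (1.91 to 70.9), the widest gap of any pair and the least precise. Relative to BT1 it was 7.70 times as large (2.77 to 23.2), relative to SEN1 7.54 times (2.53 to 23.8) and relative to BT2 3.87 times (1.43 to 11.5). Among all 15 pairs of markers, the interval excluded equal ratios in 9. The ratios of SEN1 and BT1 were close to each other, with SEN1 1.02 times BT1 (0.645 to 1.59), and the interval does not exclude a moderate difference in either direction. These intervals are not adjusted for the number of pairs and compare 2 libraries only.

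**Figure D3:**
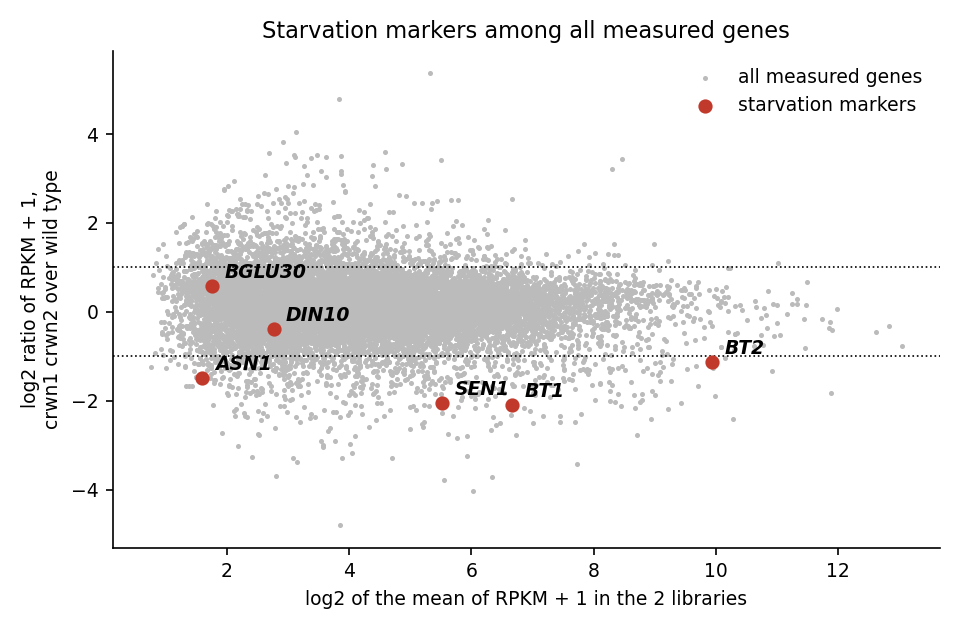
Ratio of RPKM + 1, crwn1 crwn2 over wild type, on a log2 scale, against the log2 of the mean of RPKM + 1 in the 2 libraries for all measured genes (grey) and the 6 markers (red), with dotted lines at 2-fold. BT1, SEN1, ASN1 and BT2 lie below the lower line, and DIN10 and BGLU30 between the lines.

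Not all close relatives of the markers were called lower. The BTB and TAZ domain family has 5 members, all measured. BT5 (AT4G37610) had 456 and 178 reads and 151 and 56.2 RPKM, 2.70-fold lower (2.26 to 3.22). With the markers BT1 and BT2, 3 of 5 family members were called lower, beside 4.53% of all measured genes. BT4 had 29 and 21 reads and BT3 8 and 10, with log2 ratios of -0.47 and 0.18, neither called. BT1 was reduced more than BT5 as well, with 105 BT1 reads for every 100 BT5 reads in wild type but 65.2 in the mutant, a 1.62-fold change of the proportion (1.23 to 2.13).

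Among asparagine synthetase genes, ASN2, which unlike ASN1 is not induced by darkness, had 19 and 22 reads and a log2 ratio of 0.11, or 0.0023 after TMM scaling. Reads covered only 4.35% of ASN2 in wild type. ASN3 had 2 and 0 reads, too few to measure. In the rhodanese family, STR16 had 48 and 24 reads (log2 ratio -1.03, called lower), whereas STR9 (-0.21), STR10 (-0.14) and STR14 (0.51) were not called. STR17 had 9 and 4 reads and STR18 6 and 4, below the limit of measurement. In total 2 of 5 measured rhodanese genes were called lower, STR16 and the marker SEN1 itself, beside 4.53% of all measured genes. STR16 has 2 listed models, and its best covered model was covered over 14.8% of its length in each library.

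In the raffinose synthase family, to which DIN10 belongs, the 1 called gene was higher in the mutant. SIP1 (AT1G55740) had 28 and 78 reads, 2.65-fold more (1.70 to 4.24), and was the only one of 3 measured family members that was called. Of all measured genes, 6.34% were called higher. RS5 (AT5G40390), which encodes the raffinose synthase of abiotic stress responses, had 18 and 38 reads and a log2 ratio of 0.81, not called. The interval of its fold (1.12 to 3.73) excluded equality. STS, a stachyose synthase gene, had 2 and 1 reads, and SIP2 was not listed and is not analysed here. The beta-glucosidase genes BGLU28 and BGLU33 had 5 and 13 and 8 and 18 reads, with log2 ratios of 0.86 and 0.80. Together with BGLU30 all 3 measured genes of that group were above 0 and none was called. BGLU32 had 0 and 1 reads, and BGLU29 and BGLU31 were not listed.

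Of 20 other genes that are induced when sugar is short, 15 were measured. Of these, 7 were called lower, none was called higher and 8 were not called, beside 4.53% of all measured genes called lower. All 15 were below 0, with a median log2 ratio of -0.94, or -1.05 relative to all measured genes, and at a 4-fold threshold 0 were called. The list was chosen with earlier results of these data known and is a description only. STP1, a monosaccharide importer of the plasma membrane, had 1904 and 579 reads and fell from 477 to 138 RPKM, 3.46-fold (3.15 to 3.804). The dormancy-associated genes DRM1 and DRM2 had 99 and 29 and 449 and 141 reads, 3.59-fold (2.35 to 5.64) and 3.35-fold lower (2.77 to 4.08). Both are loci with several listed models, and DRM1 was not measurable on its best covered model alone. MIOX2, which oxidises myo-inositol, had 961 and 380 reads, 2.66-fold lower (2.36 to 3.004). DIN11, an oxygenase gene, had 14 and 5 reads, and its interval for the fold (1.003 to 10.5) only just excluded equality.

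Within that list, enzymes that break down branched-chain amino acids gave graded values. DIN4, a subunit of the branched-chain keto acid dehydrogenase, had 169 and 68 reads, 2.61-fold lower (1.96 to 3.52). IVD, the next enzyme of leucine breakdown, had 344 and 149 reads, 2.43-fold lower (1.999 to 2.96). BCKDH-E1A (AT1G21400), another subunit gene of the dehydrogenase, had 162 and 87 reads and a log2 ratio of -0.94, not called, and -1.07 and called lower after TMM scaling. MCCB and MCCA, subunits of the carboxylase that follows, had log2 ratios of -0.64 and -0.47, not called. BCAT2, an aminotransferase of the first step, had 8 and 0 reads, below the limit of measurement, and DIN3 had 4 and 6. The remaining measured genes were not called, and their log2 ratios were -0.73 for ATL8, -0.52 for PRODH1, -0.43 for GDH2, -0.38 for PRODH2 and -0.07 for GDH1. The intervals of BCKDH-E1A, MCCB and PRODH1 excluded equality. Without TMM scaling these genes were not called because their RPKM + 1 differed less than 2-fold. DIN9 had 3 and 6 reads and PPDK 3 and 4, and MIOX4 was not listed.

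The list of genes that sugar induces is small. Of 7, 4 were measured, all 4 were above 0 and 2 were called higher, beside 6.34% of all measured genes. The glucose 6-phosphate transporter gene GPT2 had 8 and 25 reads, 2.97-fold more (1.30 to 7.62), and the chalcone synthase gene CHS 48 and 304. APL3, a subunit of the starch enzyme ADP-glucose pyrophosphorylase, had 45 and 95 reads (log2 ratio 0.94, not called). The interval of its fold (1.39 to 2.93) excluded equality. VSP2 had 7 and 10 reads (0.32, not called). The median of the 4 measured genes was 1.10. VSP1 had 8 and 8 reads (log2 ratio -0.06), below the limit of measurement, and BAM5 and PAP1 were not listed.

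The transcripts of the upstream regulators gave no called difference. Over all measured genes, 12829 of 14393 were not called either, so this does not set the regulators apart. SnRK1 kinase subunit genes had 4 of 6 members measured, none called, with a median log2 ratio of -0.09. The regulatory subunit gene SNF4 had 192 and 210 reads (0.05), AKINBETA3 49 and 47 (-0.13), AKINBETA1 27 and 22 (-0.33) and the catalytic subunit gene KIN10 11 and 11 (-0.05). Reads covered only 9.73% of KIN10 in wild type and 7.33% in the mutant, and the interval of its fold ran from 0.374 to 2.42. KIN11 had 1 and 3 reads, below the limit of measurement. Of 9 bZIP genes of the C and S1 groups, only BZIP9 was measured, with 106 and 93 reads and a log2 ratio of -0.26. BZIP63, a SnRK1 target, had 0 and 4 reads, BZIP25 8 and 5 and BZIP10 4 and 3, and the 5 S1 genes BZIP1, BZIP2, BZIP11, BZIP44 and BZIP53 were not listed and are not analysed here. SnRK1 activity is set largely at the protein level and is not measured by these transcripts.

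Genes of dark-induced senescence and of autophagy, which often accompany the markers in darkened leaves, gave no called difference either. This does not set them apart from the 12829 of 14393 measured genes that were not called. Of 7 measured senescence genes none was called and the median log2 ratio was 0.09. The transcription factor genes ORS1, NAP and ORE1 had ratios of 0.91, -0.35 and -0.25, RVE2 had 0.27, and the chlorophyll breakdown genes PAO, NYE1 and NYC1 had 0.09, 0.13 and -0.16. ORS1 had 36 and 74 reads, 1.95-fold more (1.29 to 2.996). Its interval excluded equality, and it was not called because its RPKM + 1 differed less than 2-fold. The light-signalling factor genes PIF4 and PIF5 had 6 and 5 wild-type reads and no mutant read, below the limit of measurement. Of 6 measured ATG8 genes, which encode the ubiquitin-like protein of autophagosomes, none was called, with a median of -0.05 and a range from -0.26 (ATG8F) to 0.44 (ATG8G), next to which stood ATG8C at 0.29.

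**Figure D4:**
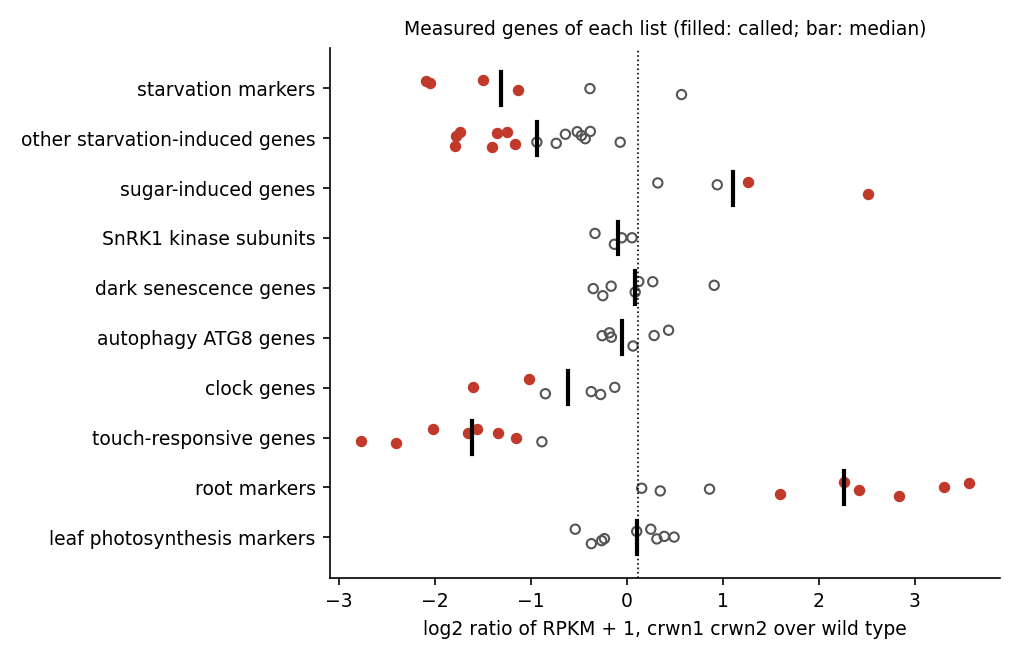
Ratio of RPKM + 1, crwn1 crwn2 over wild type, on a log2 scale, of each measured gene in 10 lists, filled when called and open when not, with a black bar at the list's median and a dotted line at the median of all measured genes. Starvation markers and the other starvation-induced genes lie mostly to the left and sugar-induced genes to the right, while clock and touch-responsive genes lie to the left and root markers to the right as well.

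Genes of several other groups were called in the same pair of libraries, and their part in the marker values was not tested. Of genes that respond within minutes to touch, 7 of 8 were called lower, beside 4.53% of all measured genes, with a summed level of 5279 RPKM against 1389 RPKM and none at 0. Their log2 ratios were -2.77 for WRKY40, -2.40 for TCH4, -2.02 for WRKY33, -1.66 for TCH3, -1.56 for STZ, -1.34 for ERF5 and -1.15 for ZAT12, and TCH2 (-0.88) was not called. Among clock genes, which can show a difference in the time of harvest, all 6 that were measured were below 0 and 2 were called lower, PRR7 (-1.60) and GI (-1.01), again beside 4.53%, while TOC1 (-0.85) was not called, with a summed level of 382 and 260 RPKM. CCA1, LHY and PRR9 were not listed. Of 9 measured root markers 6 were called higher, beside 6.34% of all measured genes, with a summed level of 70.1 RPKM against 178 RPKM in the mutant. The root hair genes EXPA18 and EXPA7 had 24 and 14 mutant reads and none in wild type. PRP3 had 7 and 96 reads, LRX1 4 and 46, COBL9 1 and 23 and CASP1, a gene of the root endodermis, 18 and 61. Not called were SCR with 172 and 232 reads (log2 ratio 0.35), SHR with 61 and 72 (0.16) and PIN2 with 36 and 73 (0.86). Of 9 measured leaf photosynthesis markers none was called, LHCB5 (-0.54), RBCS1A (0.49) and PRK (0.39) having the largest log2 ratios, with a median log2 ratio of 0.10 and a summed level of 14031 and 12632 RPKM.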

How the data were processed

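Reads of 1 wild-type and 1 crwn1 crwn2 library from seedlings aged 10 days were made from oligo(dT)-selected RNA for an Illumina HiSeq run, per the labels' protocols. Per the file headers, the deposited values are counts of reads with a unique placement, 1 per transcript model. The RPKM column of the authors follows from count, model length and header total. The deposited coverage is the percent of a model's length covered by reads. Per the submitters' processing notes, TAIR10 was the build. Aligner, counting rule, filters and strand setting: not given in the sources used here.

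Reads and RPKM were summed over the transcript models of each locus, and a locus listed in 1 library only was set to 0 reads in the other. A gene counted as measured with 10 reads and an RPKM of 1 in either library. The calling rule was tested on simulated counts with changes of at least 4-fold at loci with many reads. That simulation held counting error only, with no variation between libraries and no smaller changes. Intervals of the ratio are exact conditional binomial (Clopper-Pearson) 95% intervals, and those between pairs of genes are conditional odds ratios (scipy 1.17.1). Reads that are PCR copies are not independent molecules, so the intervals can be too narrow even for counting error. They cover no variation between libraries. TMM factors (0.954 in wild type and 1.05 in the mutant) came from edgeR 4.0.16. Promoters came from TAIR10.1, in which 5693 of 24033 deposited models had exactly the span of a RefSeq transcript or gene. All 129 listed loci matched RefSeq.

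The members and the 17 lists were chosen with earlier results of these data known. All markers and their families are named, and from other lists the called genes and up to 3 with the largest ratio in either direction. Further genes of the starvation, senescence, regulator and root lists were named after their values were seen. With 2 libraries no likeness of pattern between genes can be computed. The alternatives tried were TMM, CPM, no floor, an RPKM floor of 5, 0.1 as pseudocount, thresholds of 1.5-fold and 4-fold, the best covered model of each locus and, added after seeing the data, loci with 1 listed model.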

Additional observations from a re-analysis of the deposited data

How the results depend on the processing

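No paired analysis was possible because each genotype has 1 library, and for the same reason no replicate could be left out. The sign of all 6 markers held under every alternative that gave a value. The fold thresholds, the floors and the pseudocount could not have changed a sign. For BT1, BT2 and BGLU30 the best covered model is the only listed one, so that setting repeats their main value. SEN1 had a log2 ratio of -0.997 on its best covered model and BT2 -1.27 after TMM scaling. The number of markers called lower was 4, 3 with an RPKM floor of 5, and 2 with a 4-fold threshold, on the best covered model, and among loci with 1 listed model, the last chosen after seeing the data and leaving out SEN1, ASN1 and DIN10. Of all measured genes, 652 were lower and 912 higher, against 1194 and 1993 at 1.5-fold and 108 and 129 at 4-fold. TMM scaling turned the split to 826 lower and 691 higher. With a 4-fold threshold, 11 in place of 29 other listed genes were called and 0 in place of 7 starvation-induced genes. ASN1 and BGLU30 gave no value with an RPKM floor of 5, and ASN1 none on its best covered model. ASN1, BGLU30 and DIN10 had at most 39 reads in either library, and their counting intervals are wide.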
